A study of Mus musculus with 5 samples.

Results

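BCLAF1, found in the nucleus, has known ties to RNA processing and to the control of transcription. Haematopoietic stem cells (HSCs) are the cells from which all blood lineages are renewed, and in the late fetus they reside in the liver. In CUT&RUN an antibody guides a nuclease to chromatin and the released DNA fragments are sequenced, so that a peak marks a place where fragments piled up above the local background. A knockout library made with the same antibody shows where such pile-ups arise without the target protein.

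The regions described here are the peaks of wild-type (WT) HSCs that no peak of the knockout (KO) HSC library overlapped by at least 1 bp, on chromosomes 1 to 19, X and Y. There were 221 of them among 975 WT peaks (22.7%, exact 95% binomial interval 20.1 to 25.4). HSC WT 1 gave 43 of its 447 peaks (9.62%) and HSC WT 2 gave 178 of its 528 (33.7%). These regions were chosen by the KO peak list itself, so these shares are a description and carry no test. Since 3 regions were called in both WT libraries, the 221 peaks stand for 218 places in the genome.

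One anti-BCLAF1 antibody served for the 5 libraries, each of 50000 sorted cells. The 2 WT and 1 KO libraries of HSCs used fetal livers of stage E17.5, with 24 to 26 embryos in a pool. The genotype label of the latter says KO, and how BCLAF1 was removed is not given in the sources used here. WT Lineage-negative, Sca1-positive, Kit-positive (LSK) progenitors gave 1 native library and 1 library of cells fixed with 0.1% formaldehyde for 2 min. For LSK cells the protocol names adult bone marrow of 2 to 3 pooled mice and the tissue label names E17.5 fetal liver, so their source is not settled here. The labels do not tie each HSC WT library to a pool of its own, so what separates these libraries may be technical. A peak list holds no value that could check the KO label.

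The libraries differed in the background solved from the peak statistics, and how far this bears on the counts below was not tested. Depth itself was not measured. Solving the peak statistics for the reads expected per position, a quantity that grows with depth, gave 1.15 for HSC KO. The WT 1 library had 0.339 and the WT 2 library 0.117. Among LSK libraries the native one had 0.327 and the fixed one 0.0220. No KO peak rested on fewer than 9 reads, whereas WT 1 peaks began at 6 reads and WT 2 peaks at 4. Set against the reads expected per position in its own library, the order was reversed. The weakest KO peak stood at 7.85 times, against 17.7 in WT 1 and 34.2 in WT 2. These lists give no KO reads at a place without a KO peak, so the absence of a KO peak is not a measured absence of reads.

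1 of the regions lay in a promoter window of the RefSeq table, and its sequence is shown because no other region met a window of that table, which is not complete. How many of all WT peaks met such a window was not counted, so this number has no comparison. Cracr2a encodes a calcium-sensing regulator of store-operated calcium channels. The window below covers the 250 bases before a Cracr2a transcription start (RefSeq, GRCm38.p6, chr6:127561086-127561335, plus strand, 5′ to 3′). Capitals mark the 87 bases under the HSC WT 2 peak.

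Cracr2a: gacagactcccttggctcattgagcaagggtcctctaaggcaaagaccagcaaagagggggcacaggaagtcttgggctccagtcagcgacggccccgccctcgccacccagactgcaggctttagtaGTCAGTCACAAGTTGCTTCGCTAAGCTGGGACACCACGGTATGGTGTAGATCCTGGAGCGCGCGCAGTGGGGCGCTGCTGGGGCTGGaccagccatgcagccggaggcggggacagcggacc

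This peak, on chromosome 6 from 127561214 to 127561300, rested on 4 reads with an enrichment of 4.48. Enrichments here are values of the authors for single peaks, meaning reads over local background with a pseudocount of 1. The summit lay 79 bp before the transcription start, and 63.2% of the bases under the peak were G or C. Over the full RefSeq window, which reaches 50 bases past the start, 63.3% were, against a median of 52.7% over 32851 promoter windows. On either strand the window held 1 GC box (GGGCGG), outside the peak, and 35.7% of all promoter windows held at least 1. It held no CCAAT box (CCAAT), TATA box (TATAAA), E-box (CACGTG) or GATA site (GATAAG), which stood in 37.4%, 13.6%, 7.15% and 7.44% of all windows. A match of letters is a description and not a binding site. No peak of the other 4 lists lay in Cracr2a.

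Most of these peaks rested on very few reads, which are counted at the summit here and throughout. Of the 178 in HSC WT 2, 113 rested on 4 reads, 48 on 5, 10 on 6 and 6 on 7, and 1 on 22. Of the 43 in HSC WT 1, 13 rested on 6 reads, 10 on 7, 6 on 8 and 7 on 9. The other 7 rested on 10, 11, 12 (4 peaks) and 27 reads. Fewer than 8 reads lay at the summit of 200 of the 221 (90.5%, exact 95% interval 85.8 to 94.0). Over all peaks this held for 32.6%, and by library for 8.72% of HSC WT 1 and 52.8% of HSC WT 2 peaks.

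The share of WT peaks without a KO peak was highest at the lowest read numbers. Of the HSC WT 2 peaks, 85.0% lacked one at 4 reads (113 of 133), 60.0% at 5 reads (48 of 80), 25.6% at 6 and 22.2% at 7. Of HSC WT 1 peaks, 86.7% lacked one at 6 reads (13 of 15), 41.7% at 7, 20.7% at 8 and 33.3% at 9. At 12 reads 22.2% still did (4 of 18). From 13 to 26 reads no HSC WT 1 peak lacked a KO peak, and from 8 to 21 reads no HSC WT 2 peak did. What share of these regions the depth accounts for was not tested.

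**Figure D1:**
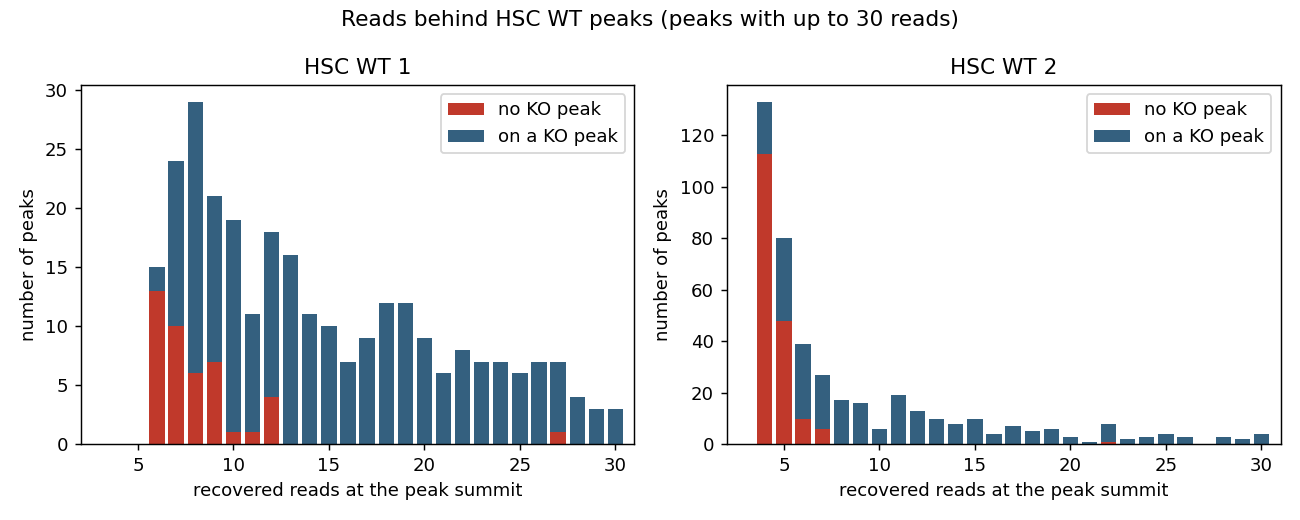
Number of HSC WT peaks (vertical axis) by recovered reads at the summit (horizontal axis, peaks with up to 30 reads), for each WT library. Red bars are peaks without a KO peak, stacked under blue bars for peaks on a KO peak. The red peaks crowd at the lowest read numbers, 4 and 5 in HSC WT 2 and 6 to 9 in HSC WT 1, with single peaks at 22 and 27 reads.

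Because reads are whole numbers, the enrichments fell on a few steps. Of the 178 HSC WT 2 peaks, 95 (53.4%) had the same enrichment of 4.48, which is 4 reads on the genome background, and 33 had 5.37, which is 5 reads. The lowest was 4.37, the median 4.48 and the highest 18.7. HSC WT 1 peaks ran from 4.92 to 9.71 with a median of 5.98. For peaks on KO peaks the median was 9.90 in the WT 1 library and 7.71 in the WT 2 library. The regions were also narrow, with a median width of 80.0 bp in HSC WT 1 and 78.0 bp in HSC WT 2, against 114 and 99.0 bp for peaks on KO peaks. Among peaks of fewer than 8 reads the medians were closer, 79.0 against 83.5 bp in HSC WT 1 and 78.0 against 83.5 bp in HSC WT 2.

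The summits stood 34.2 to 188 times over the genome background in the WT 2 library and 17.7 to 79.7 times in the WT 1 library. The low ends, 4 and 6 reads, are those of the weakest peaks called in each library, so they follow from the peak calling. Exact Poisson intervals of the reads cover counting error and not the fact that the summits were picked as the highest of very many positions. The sources used here name no treatment of duplicates, so reads may also be copies of the same molecule.

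The only regions called in both HSC WT lists, 3 in number, lay outside protein-coding genes, and their edges differed by no more than 2 bp between the libraries. The strongest spanned positions 28525997 to 28526072 of chromosome 17, had Armc12 as its nearest gene (4789 bp), and rested on 12 reads in HSC WT 1 (exact Poisson 95% interval 6.20 to 21.0) and 5 in HSC WT 2 (1.62 to 11.7). The nearest KO peak was 1593279 bp away. Another, from 40191136 to 40191210 of chromosome X, rested on 9 and 5 reads. Cypt14 was the nearest gene (327532 bp) and the nearest KO peak was 1292362 bp off. The last, from 10085622 to 10085697 of chromosome 6, rested on 7 and 4 reads. Its nearest gene was Nxph1, which encodes a neurexin-binding protein, at 836003 bp. None of the 3 had a peak in either LSK list.

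The region of both WT libraries beyond Nxph1 gave 2 of 4 such peaks, at 3 places, that lay within 296502 bp, from 9889953 to 10186454. This was the only place where 3 or more of the 221 peaks followed each other with gaps of at most 500 kb, and it was singled out after the values were seen. The strongest region of HSC WT 2 lay at its end, from 10186386 to 10186454, with 22 reads (exact Poisson 95% interval 13.8 to 33.3), an enrichment of 18.7 and rank 31 of 528 peaks. At the same place fixed LSK cells had a peak from 10186383 to 10186461 with 109 reads and an enrichment of 61.2, rank 9 of 278. HSC WT 1, whose background was the higher of the WT libraries, had no peak there, and neither had HSC KO or native LSK. At its start, from 9889953 to 9890125, lay 1 of the 3 HSC WT 1 regions that shared the top enrichment of 9.71, with 12 reads. The stretch held 0 KO peaks, and the nearest lay 78884 bp before it. All of it lay downstream of Nxph1, a gene on the plus strand that ends at 9249619.

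**Figure D2:**
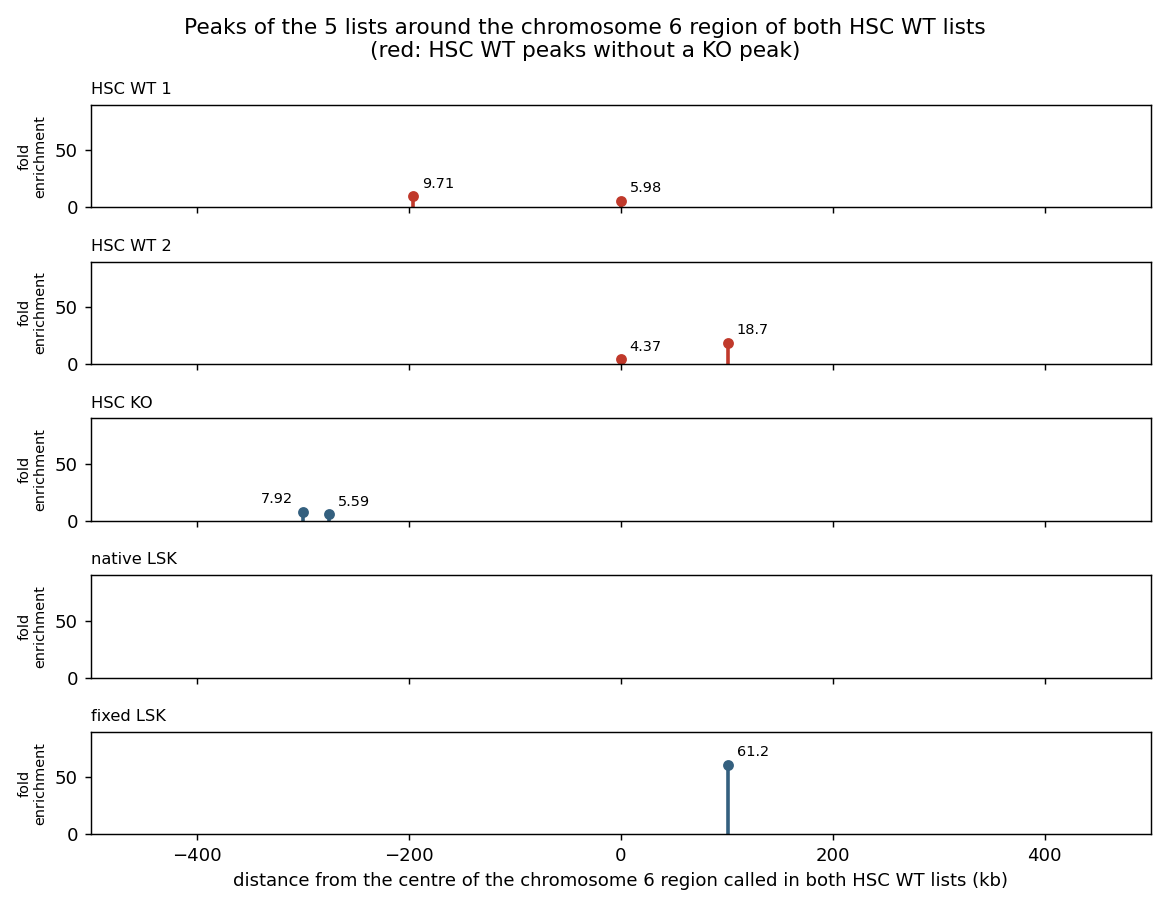
Fold enrichment (vertical axis) of every peak within 500 kb of the centre of the chromosome 6 region called in both HSC WT lists (horizontal axis, distance in kb), 1 panel for each library. Red marks are HSC WT peaks without a KO peak and blue marks are all other peaks. The WT 2 peak of 18.7 and the fixed LSK peak of 61.2 stand at the same distance of 101 kb, where the other 3 panels are empty.

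For the regions of 1 WT library, neither the other WT library nor the LSK libraries entered the rule directly. Yet 564 of the 570 WT peaks that overlapped the other WT list lay on KO peaks. So did all 639 that overlapped native LSK peaks. The shares below thus depend on the KO list that chose the regions. Of the 221 peaks, 6 overlapped a peak of the other WT list (2.71%), against 58.5% of all WT peaks. These were 3 of the 43 HSC WT 1 regions (6.98%, exact 95% interval 1.46 to 19.1), against 62.4% of all HSC WT 1 peaks. They were also 3 of the 178 HSC WT 2 regions (1.69%, 0.349 to 4.85), against 55.1% of all. With native LSK peaks 0 of 43 and 0 of 178 overlapped, which allows shares of up to 6.98% and 1.69% when the limit is set at 3 peaks of the total (exact 95% upper bounds 8.22% and 2.05%), against 75.2% and 57.4% of all peaks. With fixed LSK peaks 0 of 43 and 1 of 178 overlapped, against 14.5% and 11.7% of all peaks. With either LSK list it was 0 of 43 (against 75.2%), 1 of 178 (0.562%, against 57.6%) and 1 of 221 in all (0.452%, against 65.6%). The 1 was the 22-read region on chromosome 6.

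Among peaks with fewer than 8 reads, those on KO peaks overlapped the other WT list and native LSK at higher shares, and fixed LSK overlap was near 0 in both classes. Of HSC WT 2 peaks with fewer than 8 reads, 53 of 102 on KO peaks also had an HSC WT 1 peak (52.0%, exact 95% interval 41.8 to 62.0), against 3 of 177 without a KO peak (1.69%, 0.351 to 4.87). With native LSK cells it was 65 of 102 (63.7%, 53.6 to 73.0) against 0 of 177. At fewer than 8 reads in HSC WT 1, 14 of 16 peaks on KO peaks overlapped a native LSK peak and 0 of 23 without one. With the other WT list it was 6 of 16 (37.5%, 15.2 to 64.6) against 1 of 23 (4.35%, 0.110 to 21.9). With fixed LSK cells it was 0 of 16 against 0 of 23 in HSC WT 1, and 1 of 102 (0.980%) against 0 of 177 in HSC WT 2. Within this read range the regions still had fewer reads than peaks on KO peaks, with medians of 4 against 5 in HSC WT 2. This split by reads was chosen after the lists were compared. Intervals treat peaks as independent, and no test was made because peaks are not replicates of a condition.

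**Figure D3:**
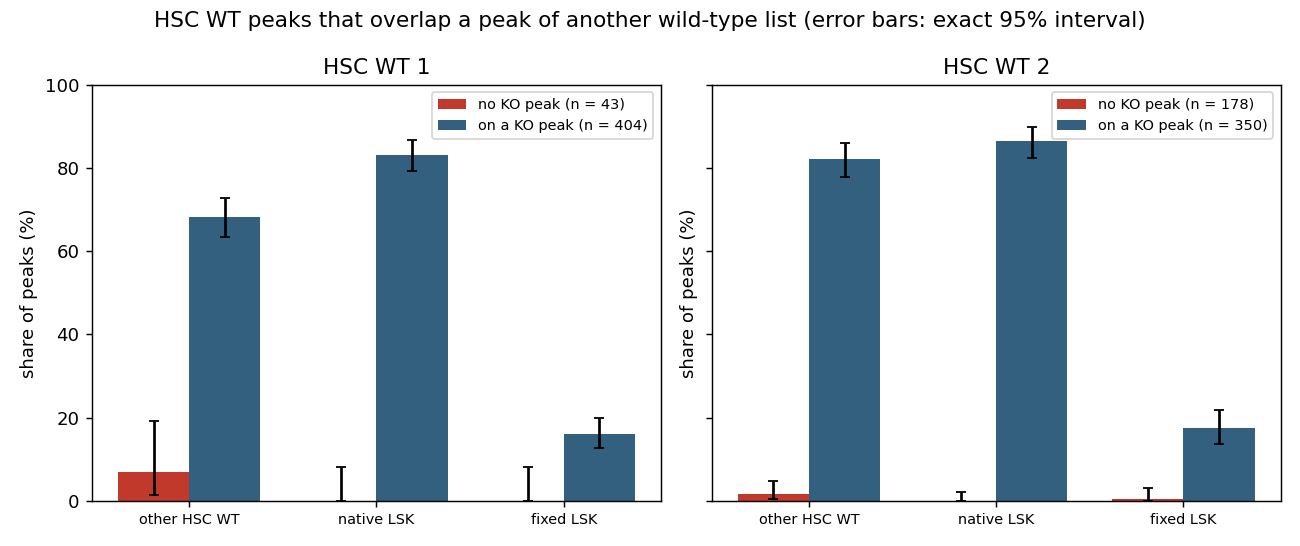
Share of HSC WT peaks (vertical axis, percent) that overlap a peak of the other HSC WT list, native LSK or fixed LSK, in each WT library, with exact 95% binomial intervals. Red bars are peaks without a KO peak and blue bars are peaks on a KO peak. The red bars stay at or below 6.98% while the blue bars for the other WT list and native LSK lie between 68.3% and 86.6%.

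Seen from the LSK side, 120 of 770 native and 182 of 278 fixed peaks had no KO peak. Of these, 0 native and 1 fixed peak (0.549% of 182) met an HSC WT region without a KO peak. These are the overlaps given above, counted from the LSK lists, and not a separate result. The share of all LSK peaks that met a WT peak was not counted.

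The strongest regions outside the stretch lay inside genes or at widely varying distances from them. In the WT 1 library Tram1, a protein translocation factor of the endoplasmic reticulum, had a region of 11 reads 6883 bp away. A region of 9 reads lay 32955 bp from Tbl1xr1, part of a corepressor complex. In the WT 2 library the next strongest after the 22-read peak had 7 reads each (2.81 to 14.4). They lay 1458 bp from the matrix metalloproteinase gene Mmp16, 477282 bp from Marcks, 288638 bp from Gcfc2 and inside Nf2, Gabrr3 and Amz2. Next came 6 regions tied at 6 reads and an enrichment of 6.27, of which the first by chromosome label and position are named. These lay 235319 bp from Ryr2, 229785 bp from Pex2 and, inside the non-coding gene Gm34196, 375827 bp from Tmem161b. On chromosome Y a region of 9 reads in HSC WT 1 lay 501343 bp from Gm20918. Over all regions the median distance to a gene boundary was 123000 bp in HSC WT 1 and 57100 bp in HSC WT 2, against 66300 and 69900 bp for all peaks.

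The region with the most reads, 27 in HSC WT 1, was also the nearest to a KO peak. It lay inside Myo3a, a myosin gene of the inner ear, on chromosome 2 from 22587760 to 22587881, only 82 bp from a KO peak. Its local background was 2.31 reads, 6.81 times that of the genome and the highest of the 43, and its enrichment was 8.47. Myo3a held 4 HSC WT 1, 1 HSC WT 2 and 6 KO peaks. Among the regions just inside the rule, the next nearest to KO peaks were a region 221874 bp from Galr1 at 89 bp, one 1163730 bp from Pcdh7 at 442 bp, and one inside the pseudogene Pisd-ps2 at 506 bp. The fifth, 2375 bp from Adamts4, was 1468 bp from a KO peak. Just outside the rule, the smallest overlaps of WT peaks with KO peaks were 27, 37, 41, 47 and 51 bp, at WT enrichments of 6.72, 3.38, 4.48, 6.08 and 2.69. The median gap to a KO peak was 231000 bp in HSC WT 1 and 277000 bp in HSC WT 2.

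Few of these regions had a close neighbour. Only 1 of 43 in HSC WT 1 and 1 of 178 in HSC WT 2 lay within 10 kb of another peak of its list, against 34.0% and 21.2% of all peaks. Among peaks on KO peaks with fewer than 8 reads it was 1 of 16 in HSC WT 1 and 1 of 102 in HSC WT 2. Chromosome 9, which held 17.3% of all WT peaks, held 7.24% of the regions and 5.47% of KO peaks. Chromosome Y held 2 of them (0.905%), against 4.72% of WT and 12.3% of KO peaks.

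By the summit, 73 of the 221 regions lay inside a protein-coding gene (33.0%, exact 95% interval 26.9 to 39.7), against 25.1% of all WT peaks. In HSC WT 1 it was 9 of 43 (20.9%, 10.0 to 36.0), against 22.6% of all, and in HSC WT 2 64 of 178 (36.0%, 28.9 to 43.5), against 27.3% of all and 22.9% of peaks on KO peaks (18.6 to 27.6). Among HSC WT 2 peaks with fewer than 8 reads the shares were 36.2% (29.1 to 43.7) and 26.5% (18.2 to 36.1), whose intervals overlap. Exon and intron are not given in the gene table. Non-coding genes and pseudogenes held 3 of 43 and 21 of 178, against 13.0% and 11.9% of all peaks.

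**Figure D4:**
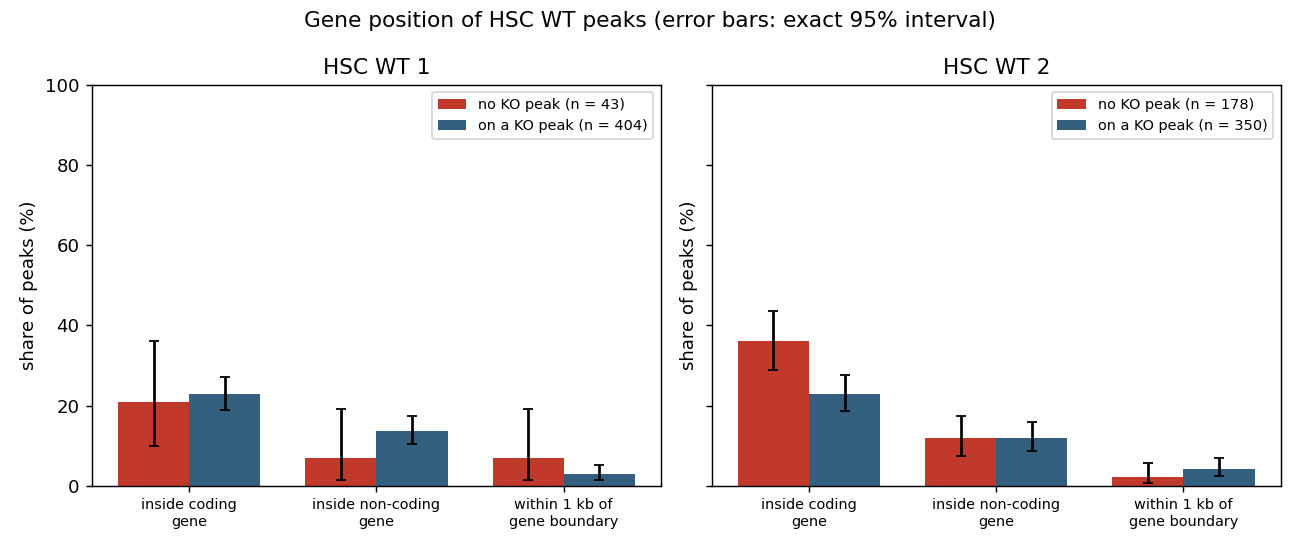
Share of HSC WT peaks (vertical axis, percent) with the summit inside a protein-coding gene, inside a non-coding gene or pseudogene, or with a protein-coding gene boundary within 1 kb, in each WT library, with exact 95% binomial intervals. Red bars are peaks without a KO peak and blue bars are peaks on a KO peak. In HSC WT 2 the red bar for coding genes stands at 36.0% and the blue at 22.9%, and in HSC WT 1 at 20.9% and 22.8%.

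Within 1 kb of a gene boundary lay 7 of the 221 (3.17%, against 3.49% of all). They were 3 regions of HSC WT 1 (6.98%, exact 95% interval 1.46 to 19.1, against 3.36% of all) and 4 of HSC WT 2 (2.25%, 0.616 to 5.65, against 3.60%). The 3 of HSC WT 1 each rested on 6 reads. One lay 512 bp past the 3′ end of Traf3, an adaptor of tumour necrosis factor receptor and interferon signalling. One lay inside Pate5, 488 bp from its 3′ end, and one inside Slc7a5, an amino acid transporter gene, 804 bp from a boundary. A region of 5 reads in HSC WT 2 lay 5 bp past the 3′ end of Stxbp4, a syntaxin-binding protein gene. Regions of 4 reads lay 919 bp before the 5′ boundary of Ndst3, a heparan sulfate enzyme, 885 bp from Snx31, and 152 bp inside Cracr2a. Of these 7, the Ndst3 and Cracr2a regions were at a 5′ boundary, and for Slc7a5 and Snx31 the tables used give no strand.

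The 73 regions lay in 71 genes, 9 from HSC WT 1 and 62 from HSC WT 2, and no gene held regions of both libraries. Lpp and Nek11 held 2 each, at 4 and 5 reads. Long genes were common: 51 of the 71 were longer than 100 kb (71.8%), against 55.8% of the 104 genes that held a WT peak on a KO peak and 11.1% of all 21883 protein-coding genes. A longer gene offers more positions for a summit, so 11.1% is not a matched expectation. In 48 of the 71, no peak of the 5 lists other than the WT regions lay in the gene. The rule itself bars a KO peak on the region, and no such share was taken for other genes with a WT peak. The number therefore has no comparison. KO peaks elsewhere in the gene were found in 20 (28.2%, against 4.73% of all genes, most of which are shorter).

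Among the HSC WT 1 genes, those after Myo3a were led by Atxn10, with a region of 10 reads and an enrichment of 8.22, and Dock3, a guanine nucleotide exchange factor of neurons, with 9 reads. Agbl4 had 7 reads. Asic2, Gpc5, Slc2a13, Pate5 and Slc7a5 had 6 reads each. Among the HSC WT 2 genes, 45 held regions of 4 reads and 13 of 5. Above these stood Nf2, the tumour suppressor merlin, with 7 reads and an enrichment of 7.16 on chromosome 11 from 4759395 to 4759506. Gabrr3, a GABA receptor subunit, and Amz2, a metallopeptidase, also had 7 reads, and Dlg2, a synaptic scaffold protein, had 6. Named next, at 5 reads and an enrichment of 5.37, were Bicc1, Trio, Lpp, Rcan2, Prkce and Bpi. They came first by chromosome label and position among the tied regions inside genes. The 33 regions at this enrichment also include regions outside genes. Prkce is a protein kinase C.

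Of the 12 gene lists examined, 2 had a gene with such a region inside it or within 10 kb, each with 1 gene and only in HSC WT 2. That is 2 of 178 regions (1.12%), against 0.758% of all HSC WT 2 peaks, 0 of 43 in HSC WT 1, against 0.895%, and 0.905% of the 221, against 0.821%. Among 35 HSC identity genes it was Mecom, which encodes the stem cell transcription factor EVI1. Its region lay on chromosome 3 from 30374984 to 30375074 with 4 reads (exact Poisson 95% interval 1.09 to 10.2), and the nearest KO peak was 2430010 bp away. Fixed LSK cells had a peak in Mecom too, from 29986246 to 29986328, with 11 reads and an enrichment of 11.1, but 388655 bp from the HSC region. Among 36 matched interferon response genes it was Irf2, a transcription factor that limits interferon signalling, at 5 reads on chromosome 8 from 46835041 to 46835116, 12342 bp from a gene boundary. The lists of NF-kB and inflammation, p53, apoptosis and DNA damage, RNA splicing, the cell cycle, chromatin regulators, and hepatocyte, erythroid, megakaryocyte, myeloid and lymphoid genes had 0.

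Other genes of known roles held HSC WT 2 regions, and they were picked out after the positions were seen. Mllt3, a factor of transcription elongation that maintains HSCs, Bcl11b, a T-cell transcription factor, Gli2 of the Hedgehog pathway, Klf12, Zfhx4 and Arntl, a clock factor, each had 4 reads. Kdm5a, a histone H3K4 demethylase, had 5. Xrcc5, the Ku80 subunit of DNA end joining, and Poln, a DNA polymerase, each had 4. Ppargc1a, a coactivator of mitochondrial genes, Sik3 and Wnk1, both kinases, and G3bp2 of stress granules each had 4. Ifi214, an interferon-inducible gene, had 4 as well. Cdh13, a cadherin gene, Cacna2d3, a calcium channel subunit gene, and Nav3 had 5. Tenm3, Negr1, Magi2, Ryr2, which encodes a calcium release channel, Sgcz and Dmd, the dystrophin gene, had 4. The exact Poisson 95% intervals of 4 reads (1.09 to 10.2) and 5 reads (1.62 to 11.7) overlap, so no order can be read among these genes.

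LSK peaks lay elsewhere in 7 of these 71 genes. Native LSK peaks lay in Asic2, Cdh13, Dlg2, Lpp and Slc2a13 and fixed LSK peaks in Arhgap15 and Mecom. The gaps ran from 53853 bp in Slc2a13 to 1113164 bp in Dlg2. The 5 genes with native peaks were 7.04% of the 71, against 0.896% of all protein-coding genes. The 2 genes with fixed peaks were 2.82%, against 0.443%. Protein-coding genes are shorter on the whole, so neither is a matched comparison.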

How the data were processed

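For each library the authors deposited a narrowPeak list. Its build is mm10, per the submitters' processing notes. The sources used here name no aligner, caller, control or treatment of duplicates. The deposited lists hold a fold enrichment (ratio of reads to local background), −log10 p-values and −log10 q-values, and a deposited score of 10 times the −log10 q-value. Enrichments are not scaled between libraries.

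Whole read numbers and backgrounds at the summit were solved from enrichment (pseudocount 1) and Poisson p up to a −log10 p of 300. A whole number fitted 100% of those peaks (relative tolerance 0.0001). The most common background of a list is used in place of its depth, which the lists do not give. Genes came from RefSeq (GRCm38.p6, the mm10 coordinates), with 21883 protein-coding genes, and strand from a RefSeq promoter table that is not complete. Of 297 listed genes 295 matched. Python 3.11.15 and scipy 1.17.1 were used. Intervals are Clopper-Pearson or exact Poisson at 95% and cover counting error only. With 1 KO library no test over samples was made.

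On simulated data 149 of 149 and 176 of 176 planted overlaps and all read numbers were recovered. The regions named follow a rule: those of both WT lists, the 10 strongest of each list, those within 1 kb of a gene, the 10 strongest inside genes, those on LSK peaks, those at listed genes within 10 kb, and the 5 nearest to KO peaks. Ties in strength were broken by chromosome label and position. HSC WT 1 had 9 inside genes. One region named by the rule is not reported here. Regions and gene lists were chosen with earlier results of these data known.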

Additional observations from a re-analysis of the deposited data

Results flagged for a closer look

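Peaks on mitochondrial and unplaced sequences were outside the comparisons. Of 97 such HSC WT 1 peaks 1 had no KO peak, with 11 reads and an enrichment of 6.63. Of 79 such HSC WT 2 peaks 0 lacked a KO peak. It drew attention as a signal in data not otherwise used.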

How the results depend on the processing

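No paired analysis was possible because the KO and LSK groups have 1 library each. Leaving out either HSC WT library gave 9.62% to 33.7% for the share of WT peaks without a KO peak. Of the regions it gave 20.9% to 36.0% inside genes, 2.25% to 6.98% within 1 kb of a boundary, 0% to 0.562% on LSK peaks and 53.5% to 99.4% with fewer than 8 reads. With a −log10 q of at least 5 in all lists, 5.58% of WT peaks lacked a KO peak and 1 region was in both WT lists. Of the 39 peaks left, 20.5% lay inside genes, 0% within 1 kb, 2.56% on LSK peaks, and 41.0% had fewer than 8 reads. With that threshold on the WT and LSK lists alone the values were 4.72%, 0 regions, 21.2%, 0%, 3.03% and 45.5%. With the KO list held to its strongest 528 peaks, 35.7% lacked a KO peak and 28 regions were in both WT lists, 14.9% lay on LSK peaks and 71.0% had fewer than 8 reads. The share without a KO peak was 19.3% with all sequences and 30.8% without crowded peaks. Within 5 kb of a boundary lay 12.7%. Fewer than 5 reads lay at the summit of 51.1% of the regions and fewer than 12 at that of 97.3%. The cause of these shifts was not tested. A KO match that needed 50% cover, or that counted a KO peak within 500 bp, left all 6 results within their intervals or counts. Gene positions were not run with all sequences, since unplaced sequences have no genes in the table used.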
